A study of Mus musculus with 8 samples.

Results

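Genes of fibroblasts and the extracellular matrix were followed in small intestine of mice given dexamethasone, DBZ, both drugs, or vehicle. The set was a list of 37 genes, and its members were all probe sets that the array's annotation assigns to them and to no other gene. There were 71 such probe sets of 22690 in the table. They covered 36 of the 37 genes, out of 12393 genes with a probe set of their own; for Fbn1 (fibrillin 1) no probe set was named in the annotation used here. Where a gene had several probe sets, the brightest on average stood for it. In 33 genes that probe set passed the filter on low signals, and Lox, Timp1 and Serpinf1 did not. The 33 are called the tested genes below.

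The arrays came from 6-week-old female C57/Black6 mice injected intraperitoneally each day for 5 days. One group received dexamethasone, a synthetic glucocorticoid, at 15 mg/kg (2 arrays). A second received DBZ, a gamma-secretase inhibitor that blocks Notch signalling, at 10 micromol/kg (1 distinct array). The next, called the combination, received both drugs at these doses (2 arrays), and the last received the DMSO vehicle (2 arrays). The labels name no transgene or deletion, all groups shared the injection schedule, and the labels do not give the segment of the small intestine for any sample. The labels list 2 DBZ samples, but the pair held the same value in 22684 probe sets and another in 6, none of them a member, so they were counted as 1 array. With so few arrays every value is imprecise, and p-values measure only the spread between these arrays. Where DBZ is compared, its lone array was taken to be as variable as those of the remaining groups.

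The vehicle arrays stood apart from the others. As deposited, their trimmed mean signal was 500.2, against 250.1 in the drug-treated arrays, and every array was scaled here to 250. A probe set for the central stretch of 18S rRNA read 29.8 to 64.7 in the drug-treated arrays, against 133 and 141 in the vehicle arrays. The 5' probe set of 18S read 30.8 to 66.8 against 137 and 128. The 3' one overlapped, with 66.0 to 116 against 84.0 and 86.8. The ratio of 3' to 5' signal, a measure of RNA integrity, was 1.80 for Gapdh in the DBZ array and 0.905 to 1.22 in the others. For beta-actin it was 1.22 to 1.40 in the dexamethasone and combination arrays and 2.17 in the DBZ array, against 1.51 and 1.79 in the vehicle arrays. Epithelial markers of intestine were present in every array: the summed signal of 11 markers was 58200 and 62930 with dexamethasone, 69361 with DBZ, 60931 and 81711 with the combination, against 59012 and 59254 with vehicle. Markers of intestinal position differed as well. Fabp6, the bile acid binding protein of the ileum, read 1116 to 11866 in the 5 drug-treated arrays, against 0.64 and 1.22 in the vehicle arrays, and Reg1, a secreted lectin of the upper intestine, read 54.7 to 101, against 7193 and 8090.5. Reg1 was the most extreme of 8 markers of proximal intestine, whose summed signal was 0.49 to 0.85 of the vehicle mean in the drug-treated arrays. Of 7 tested, limma called 4, 3 and 2 lower with dexamethasone, DBZ and the combination, and 0 higher. Of all genes, 5.29%, 3.89% and 3.5% were called lower.

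Fibroblasts and related mesenchymal cells of the gut wall lie under the epithelium and around the crypts. They secrete fibrillar collagens, which are bundled by small leucine-rich proteoglycans and joined by lysyl oxidases, and they contribute to the collagen IV sheet of the basement membrane. They also release signals that shape the crypt, among them antagonists of bone morphogenetic proteins. Glucocorticoids are known to lower collagen synthesis in skin and in cultured fibroblasts, and Notch blockade in the intestine is known mainly for its effect on epithelial progenitors.

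To show the sequence at the start of these genes, promoter windows from RefSeq (GRCm38.p6), 250 bases before to 50 bases after the annotated start, were matched by symbol for 25 of the 37 genes, in 29 windows. The first 4 windows below belong to genes that rose in all 3 drug groups against vehicle. The other pair is Col4a1 and Col4a2, which are read in opposite directions from a shared start region. Capitals mark CCAAT and TATAAA on either strand, so that ATTGG is CCAAT read on the other strand.

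Col1a2, chr6:4505368-4505667, plus strand: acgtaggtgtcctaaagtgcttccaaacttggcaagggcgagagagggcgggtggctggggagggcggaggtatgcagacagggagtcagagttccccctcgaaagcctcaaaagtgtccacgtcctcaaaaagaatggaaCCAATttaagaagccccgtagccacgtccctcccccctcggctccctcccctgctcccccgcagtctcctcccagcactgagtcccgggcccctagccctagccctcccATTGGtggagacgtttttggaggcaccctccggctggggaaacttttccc
Grem1, chr2:113758599-113758898, minus strand: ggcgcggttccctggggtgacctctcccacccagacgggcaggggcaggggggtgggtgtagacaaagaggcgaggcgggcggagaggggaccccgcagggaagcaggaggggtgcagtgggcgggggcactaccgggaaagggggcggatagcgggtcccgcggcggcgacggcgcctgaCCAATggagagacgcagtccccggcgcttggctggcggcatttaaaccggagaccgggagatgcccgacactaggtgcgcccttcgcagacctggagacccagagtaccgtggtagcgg
Postn, chr3:54360857-54361156, plus strand: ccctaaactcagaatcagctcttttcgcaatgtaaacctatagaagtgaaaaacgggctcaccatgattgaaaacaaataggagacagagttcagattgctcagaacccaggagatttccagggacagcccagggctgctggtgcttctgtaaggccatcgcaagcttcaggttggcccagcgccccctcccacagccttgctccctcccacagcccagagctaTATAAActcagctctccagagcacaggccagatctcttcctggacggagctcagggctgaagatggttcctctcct
Vim, chr2:13574061-13574360, plus strand: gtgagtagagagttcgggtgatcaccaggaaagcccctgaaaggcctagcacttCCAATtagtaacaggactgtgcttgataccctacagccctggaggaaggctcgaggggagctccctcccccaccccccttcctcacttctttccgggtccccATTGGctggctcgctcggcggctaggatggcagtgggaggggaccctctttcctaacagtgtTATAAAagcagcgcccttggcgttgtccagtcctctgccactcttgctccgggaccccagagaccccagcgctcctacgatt
Col4a1, chr8:11312777-11313076, minus strand: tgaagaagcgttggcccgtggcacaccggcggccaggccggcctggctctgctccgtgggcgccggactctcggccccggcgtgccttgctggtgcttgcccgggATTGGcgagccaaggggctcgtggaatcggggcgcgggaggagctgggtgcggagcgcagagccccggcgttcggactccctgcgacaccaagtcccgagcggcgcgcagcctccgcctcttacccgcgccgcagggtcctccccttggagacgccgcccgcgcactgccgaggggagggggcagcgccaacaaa
Col4a2, chr8:11312555-11312854, plus strand: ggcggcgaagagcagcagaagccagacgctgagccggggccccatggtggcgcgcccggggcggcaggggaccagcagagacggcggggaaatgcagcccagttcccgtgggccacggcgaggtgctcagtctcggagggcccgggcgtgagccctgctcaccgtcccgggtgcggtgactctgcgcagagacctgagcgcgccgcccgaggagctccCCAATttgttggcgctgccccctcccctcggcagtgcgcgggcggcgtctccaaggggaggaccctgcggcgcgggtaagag

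The windows of Col4a1 and Col4a2 overlap by 78 bases, from 11312777 to 11312854 of chromosome 8. TATAAA stood 26 bases before the start in the Postn window shown, which is 1 of its 2 windows, and 32 bases before the start in Vim. No capital stretch overlaps another in these windows. Over both strands, TATAAA was present in 10.3% of the 29 member windows and in 13.6% of all 32851 windows, and CCAAT in 37.9% against 37.4%. The GC box GGGCGG was in 58.6% of member windows and 35.7% of all windows. AGAACA, part of the motif of the glucocorticoid receptor, was in 10.3% against 19.0%, and TGGGAA, the core of the RBPJ motif of Notch signalling, in 17.2% against 25.6%. A match is a description of letters and not a bound site.

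Matrix genes were on balance higher in all drug-treated groups than in vehicle once arrays were scaled to one trimmed mean. Without that scaling the median with the combination was -0.20, where the median of all tested probe sets was -0.99. With dexamethasone 18 of 33 tested genes rose and 0 fell, where 6.93% of all 8094 genes tested rose and 5.29% fell (limma, Benjamini-Hochberg adjusted p under 0.05). With DBZ 12 rose and 1 fell, against 3.94% and 3.89% of all genes. With the combination 11 rose and 0 fell, against 3.83% and 3.5%. The median log2 difference of the tested genes was 1.15 with dexamethasone, 1.04 with DBZ and 0.73 with the combination, where the medians of all genes were 0.02, -0.02 and -0.05. Over all 36 measured genes, those under the filter included, the medians were 1.07, 0.99 and 0.61. These 3 comparisons share the vehicle arrays and are not independent of each other. In whole tissue, more cells of a type and more RNA per cell cannot be told apart.

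**Figure D1:**
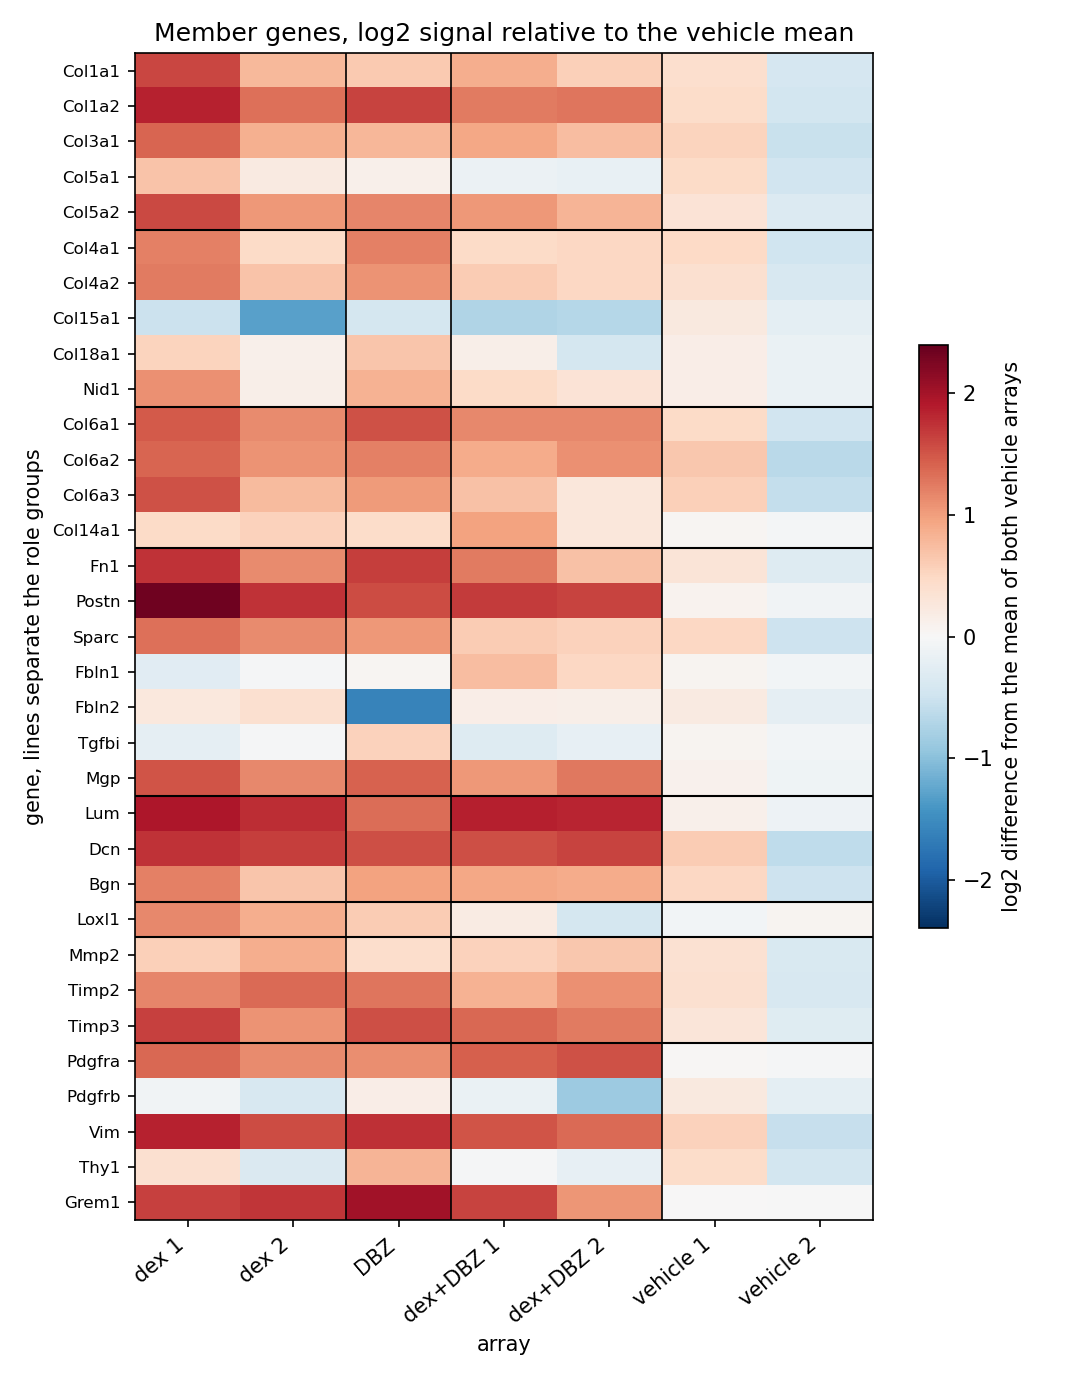
Heat map of the log2 signal of the 33 tested genes in 7 arrays, each minus the mean of both vehicle arrays of that gene; rows are grouped by role. Red dominates the 5 drug-treated columns, and the vehicle columns split into a redder replicate 1 and a bluer replicate 2.

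The same genes also differed between the vehicle arrays. Of the 33, 32 were higher in vehicle replicate 1 than in replicate 2, with a median log2 difference of 0.64, where 55.5% of all genes were higher and their median was 0.05. Loxl1 was the exception. Between the dexamethasone arrays 26 were higher in replicate 1 (median 0.36), against 53.2% of all genes, and between the combination arrays 22 were (median 0.06), against 48.6%. In 21 of 33 genes all 5 drug-treated arrays nevertheless lay above both vehicle arrays, and 15.4% of all genes did so. One gene, Col15a1, lay below both vehicle arrays in all 5, as did 17% of all genes. Relative to the vehicle mean, the median log2 level of the 33 genes was 1.33 and 0.87 in the dexamethasone arrays, 1.04 in the DBZ array, 0.88 and 0.64 in the combination arrays, and 0.32 and -0.32 in the vehicle arrays.

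Of the 3 small leucine-rich proteoglycans, which coat collagen fibrils, 2 rose in all 3 drug groups (medians of 1.70, 1.35 and 1.59). Lumican (Lum), which sets fibril spacing, read 579 and 509.7 with dexamethasone, 379 with DBZ, 545 and 534 with the combination, against 154 and 129 with vehicle. Every drug-treated array was above both vehicle arrays by a wide margin. Lum rose by 1.86 ± 0.18 with dexamethasone (SE, adjusted p = 0.000501), 1.35 ± 0.22 with DBZ (adjusted p = 0.00945) and 1.85 ± 0.18 with the combination (adjusted p = 0.000783). These calls remained when any 1 array other than the DBZ array, which could not be left out, was left out. Decorin (Dcn), which binds collagen and TGF-beta, read 2428 and 2307 with dexamethasone, 2144 with DBZ, 2139 and 2253 with the combination, against 1112 and 467 with vehicle. The drug-treated arrays lay close together while the vehicle arrays were far apart. Dcn rose by 1.70 ± 0.32, 1.55 ± 0.39 and 1.59 ± 0.32 in the same order of groups. The first of these calls ended without dexamethasone replicate 1 (1.66), and the other two ended without combination replicate 1 (1.55 and 1.62) or combination replicate 2 (1.55 each). Without vehicle replicate 2 the Dcn differences were 1.08, 0.94 and 0.97, and all still passed. Biglycan (Bgn) had 0.94 ± 0.30, 0.96 ± 0.37 and 0.91 ± 0.30 and did not pass in any of the 3 (adjusted p = 0.0747, 0.138 and 0.10), though another of its probe sets passed with dexamethasone (1.34 ± 0.34).

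Among the fibrillar collagens, which form the tensile fibres of the submucosa, 4 of 5 rose with dexamethasone and 1 of 5 rose with DBZ and with the combination. Col1a2, a chain of collagen I, read 1256 and 862 with dexamethasone, 1068 with DBZ, 824 and 839 with the combination, against 466 and 245 with vehicle. The groups did not overlap, and Col1a2 rose by 1.58 ± 0.28, 1.62 ± 0.34 and 1.26 ± 0.28 (adjusted p = 0.00735, 0.0232 and 0.0265). The dexamethasone call ended without dexamethasone replicate 1 (1.32), and the other calls ended without either combination array (1.62 with DBZ, 1.28 and 1.25 with the combination). The combination call also ended without vehicle replicate 2 (0.82). The other Col1a2 probe set gave 0.94, 0.99 and 0.66 and passed with dexamethasone only. Col5a2, a chain of the collagen V that nucleates fibrils, read 280.2 and 189 with dexamethasone, 209.5 with DBZ, 189 and 159 with the combination, against 110.0 and 65.9 with vehicle. It rose with dexamethasone (1.31 ± 0.27, adjusted p = 0.0147), and it had 1.18 ± 0.34 with DBZ and 0.93 ± 0.27 with the combination, which did not pass. Col1a1, the other chain of collagen I, and Col3a1, the collagen of reticular fibres, rose with dexamethasone by 1.19 ± 0.33 and 1.13 ± 0.32. A second Col1a1 probe set had -0.18 ± 0.40 with dexamethasone, -0.01 with DBZ and -0.66 with the combination, and a second Col3a1 probe set had 1.24 ± 0.39 with dexamethasone; none of these passed. Without vehicle replicate 2 the dexamethasone differences of Col1a1, Col3a1 and Col5a2 were 0.78, 0.58 and 0.99 and none of them passed, and all 3 also did not pass without dexamethasone replicate 1 (0.78, 0.86 and 1.04). The calls of Col1a1 and Col3a1 also ended without either combination array (1.19 and 1.13), and that of Col3a1 without dexamethasone replicate 2 (1.39). Col5a1 read 166 and 117 with dexamethasone, 108 with DBZ, 88.8 and 85.9 with the combination, against 140.2 and 68.0 with vehicle, and the groups overlapped; a second probe set had -0.01 and 0.06 with dexamethasone and the combination.

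Collagen VI, which forms beaded filaments around cells, was higher too: of 4 tested genes of collagen VI and XIV, 2 rose with dexamethasone and 1 in each of the other groups. Col6a1 read 674 and 532 with dexamethasone, 704 with DBZ, 541 and 543 with the combination, against 329 and 169 with vehicle. It rose in all 3 groups, by 1.30 ± 0.27, 1.52 ± 0.33 and 1.16 ± 0.27 (adjusted p = 0.0147, 0.0250 and 0.0322). Without vehicle replicate 2 the differences of Col6a1 with dexamethasone and with the combination were 0.84 and 0.70, and neither passed. The dexamethasone call also ended without dexamethasone replicate 1 (1.13), and the others without either combination array (1.52 with DBZ, 1.15 and 1.16 with the combination). Col6a2 read 701 and 563 with dexamethasone, 617 with DBZ, 489.8 and 567 with the combination, against 411 and 162 with vehicle. Its lowest drug-treated array was thus just above the higher vehicle array, and it passed only with dexamethasone (1.24 ± 0.34, adjusted p = 0.0433). That Col6a2 call remained in 1 of 6 fits that left out an array: it ended without vehicle replicate 2 (0.60), dexamethasone replicate 1 (1.08), dexamethasone replicate 2 (1.39) or either combination array (1.24 each). A second Col6a2 probe set had 0.63 ± 0.26 with dexamethasone and did not pass. Col6a3 (0.49 to 1.15) and the fibril-associated Col14a1 (0.44 to 0.61) did not pass in any of the 3.

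No basement membrane gene passed in any comparison with vehicle by limma, and of the 5 genes, 3 with dexamethasone, 3 with DBZ and 0 with the combination had an unadjusted p under 0.05. Col4a1 and Col4a2, the chains of the main network collagen whose windows are shown above, had similar values. Col4a1 read 804 and 471 with dexamethasone, 800.2 with DBZ, 471 and 489 with the combination, against 477 and 243 with vehicle, so that vehicle replicate 1 overlapped the drug groups. Col4a2 read 413 and 275 with dexamethasone, 367 with DBZ, 260.2 and 239 with the combination, against 221 and 124 with vehicle. In the order dexamethasone, DBZ and combination, the log2 differences from vehicle were 0.83, 1.20 and 0.48 for Col4a1 and 0.97, 1.08 and 0.55 for Col4a2 (SE 0.28 to 0.39; smallest adjusted p = 0.0502, for Col4a2 with dexamethasone). Nid1, which links laminin to collagen IV, had 0.62, 0.83 and 0.39, and Col18a1, the source of endostatin, had 0.33, 0.67 and -0.14 (0.19 with the combination in its second probe set). A second Nid1 probe set passed with dexamethasone (1.49 ± 0.35) and the combination (1.31 ± 0.35), but it read 19.2 with DBZ, against 17.2 and 17.6 with vehicle. Col15a1, a related collagen of vessels and muscle, read 53.4 and 25.6 with dexamethasone, 57.5 with DBZ, 44.4 and 46.2 with the combination, against 97.8 and 67.6 with vehicle. It was the member with the lowest values relative to vehicle with dexamethasone and with the combination (-0.91 ± 0.34 and -0.70 ± 0.34), and neither passed.

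Of the 7 tested glycoproteins 4 rose with dexamethasone, 3 with DBZ and 2 with the combination, and 1 fell with DBZ. Periostin (Postn), a matricellular protein of collagen-rich tissue, read 1177 and 773 with dexamethasone, 689 with DBZ, 745 and 719 with the combination, against 238 and 211 with vehicle. The vehicle arrays were close together here, and Postn rose by 2.03 ± 0.21, 1.57 ± 0.26 and 1.65 ± 0.21 (adjusted p = 0.000756, 0.00977 and 0.00301), calls that remained when any 1 array other than the DBZ array was left out. Matrix Gla protein (Mgp), an inhibitor of calcification, read 948 and 735 with dexamethasone, 888 with DBZ, 679 and 793 with the combination, against 351 and 299 with vehicle. It rose by 1.33 ± 0.19, 1.42 ± 0.23 and 1.15 ± 0.19, and the last of these calls ended without combination replicate 1 (1.26) or 2 (1.04). Fibronectin (Fn1) read 949 and 617 with dexamethasone, 897 with DBZ, 669 and 454 with the combination, against 345 and 219.6 with vehicle. It rose with dexamethasone (1.43 ± 0.28) and DBZ (1.66 ± 0.34), and had 0.97 ± 0.28 with the combination (adjusted p = 0.0672). Without vehicle replicate 2 neither Fn1 call passed (1.12 and 1.35), and the first also ended without dexamethasone replicate 1 (1.13). Sparc, which binds collagen during fibril assembly, passed with dexamethasone alone (1.23 ± 0.28), and did not pass without vehicle replicate 2 (0.74) or dexamethasone replicate 1 (1.13). A second Sparc probe set had 0.82 ± 0.33 with dexamethasone and did not pass.

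Both fibulins and Tgfbi had patterns unlike these. Fibulin 1 (Fbln1), a protein of elastic fibres and basement membranes, read 1146 and 1365 with dexamethasone, 1427 with DBZ, 2320.3 and 1959 with the combination, against 1459 and 1316 with vehicle. Only the combination arrays stood above the rest, and the difference from vehicle was 0.62 ± 0.17 (adjusted p = 0.0628). A second Fbln1 probe set was lower with dexamethasone than with vehicle and passed (-0.77 ± 0.21, adjusted p = 0.0445). Tgfbi, an adhesion protein induced by TGF-beta, read 2126 and 2408 with dexamethasone, 3614 with DBZ, 1999 and 2153 with the combination, against 2597 and 2348 with vehicle. All 4 Tgfbi probe sets were highest in the DBZ array, with log2 differences from vehicle of 0.46 to 0.62, and none passed. Fibulin 2 (Fbln2) read 53.4 and 60.2 with dexamethasone, 5.97 with DBZ, 49.3 and 48.9 with the combination, against 51.8 and 35.3 with vehicle. It fell in the DBZ array (-1.60 ± 0.38, adjusted p = 0.0340), a value that rests on 1 reading under the pseudocount of 12.3 and that did not pass without vehicle replicate 1 (-1.38) or either combination array (-1.60 each).

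Among the proteases and inhibitors, the tissue inhibitors of metalloproteinases Timp2 and Timp3 rose in all 3 groups. Timp2 read 473 and 541 with dexamethasone, 511 with DBZ, 374 and 450.4 with the combination, against 269 and 153 with vehicle, with rises of 1.27 ± 0.25, 1.28 ± 0.31 and 0.97 ± 0.25. Timp3, which is held in the matrix, read 338 and 224 with dexamethasone, 313 with DBZ, 278 and 252 with the combination, against 125 and 79.3 with vehicle, with rises of 1.36 ± 0.26, 1.54 ± 0.32 and 1.31 ± 0.26. Neither gene overlapped between drug-treated and vehicle arrays. Without vehicle replicate 2, Timp2 had 0.88, 0.90 and 0.59 and Timp3 had 1.07, 1.25 and 1.02, and none of these passed. Leaving out either combination array also ended the combination calls of both genes (0.84 to 1.38) and the DBZ call of Timp2 (1.28). The dexamethasone call ended without dexamethasone replicate 2 for Timp2 (1.17) and without dexamethasone replicate 1 for Timp3 (1.08), and the combination call of Timp2 ended without either dexamethasone array (0.97). Of the other Timp3 probe sets, 2 did not pass in any group; 1 of them had 0.83, 0.00 and 0.96, and the other 0.64, 0.74 and 0.64. Of the other Timp2 probe sets, 1 did not pass in any group (0.93, 0.78 and 0.89) and another did not pass with DBZ (0.59 ± 0.38). Mmp2, the gelatinase that Timp2 regulates, had 0.72, 0.42 and 0.60 and did not pass, while its second probe set passed in all 3 groups (1.54 ± 0.22, 1.51 ± 0.27 and 1.63 ± 0.22). Loxl1, which cross-links elastin, read 155 and 125 with dexamethasone, 103 with DBZ, 73.7 and 43.9 with the combination, against 59.7 and 65.8 with vehicle. It rose with dexamethasone (1.02 ± 0.28, adjusted p = 0.0420), and that call ended without either dexamethasone array (0.88 and 1.15) or either vehicle array (0.96 and 1.07). The untested members stayed low: Lox read 5.76 to 48.2, Timp1 14.4 to 49.9 and Serpinf1 6.82 to 44.2 over the 7 arrays.

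Of the 5 tested markers and regulators of mesenchymal cells, 3 rose in each drug group. Pdgfra, the receptor that marks fibroblasts under the epithelium, read 317 and 267 with dexamethasone, 262 with DBZ, 331 and 352 with the combination, against 117 and 112 with vehicle. It rose by 1.26 ± 0.19, 1.12 ± 0.23 and 1.48 ± 0.19 (adjusted p = 0.00339, 0.0205 and 0.00289), and all 3 calls remained when any 1 array other than the DBZ array was left out. A second Pdgfra probe set had 0.74 ± 0.33, 0.40 ± 0.40 and 1.06 ± 0.33 and did not pass. Gremlin 1 (Grem1), the antagonist of bone morphogenetic proteins made by mesenchyme below the crypts, read 285 and 302 with dexamethasone, 374 with DBZ, 282 and 188 with the combination, against 83.6 and 82.8 with vehicle. The vehicle arrays were nearly equal, and Grem1 rose by 1.68 ± 0.22, 2.02 ± 0.27 and 1.35 ± 0.22, of which the last did not pass without combination replicate 1 (1.07). Vimentin (Vim), the intermediate filament of mesenchymal cells, read 1087 and 898 with dexamethasone, 1016 with DBZ, 859 and 769 with the combination, against 435 and 197 with vehicle. Vim rose by 1.71 ± 0.30, 1.75 ± 0.37 and 1.43 ± 0.30, while its 2 other probe sets had 0.59 to 0.96 and did not pass. The combination call of Vim ended without either combination array (1.35 and 1.51) or vehicle replicate 2 (0.88). Pdgfrb, the receptor of pericytes, read 122 and 97.5 with dexamethasone, 148 with DBZ, 116 and 66.1 with the combination, against 157 and 109 with vehicle. Thy1, a surface protein shared by fibroblasts and T cells, read 72.9 and 38.6 with dexamethasone, 102 with DBZ, 51.4 and 44.3 with the combination, against 76.4 and 35.5 with vehicle. Both overlapped between groups and did not pass.

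**Figure D2:**
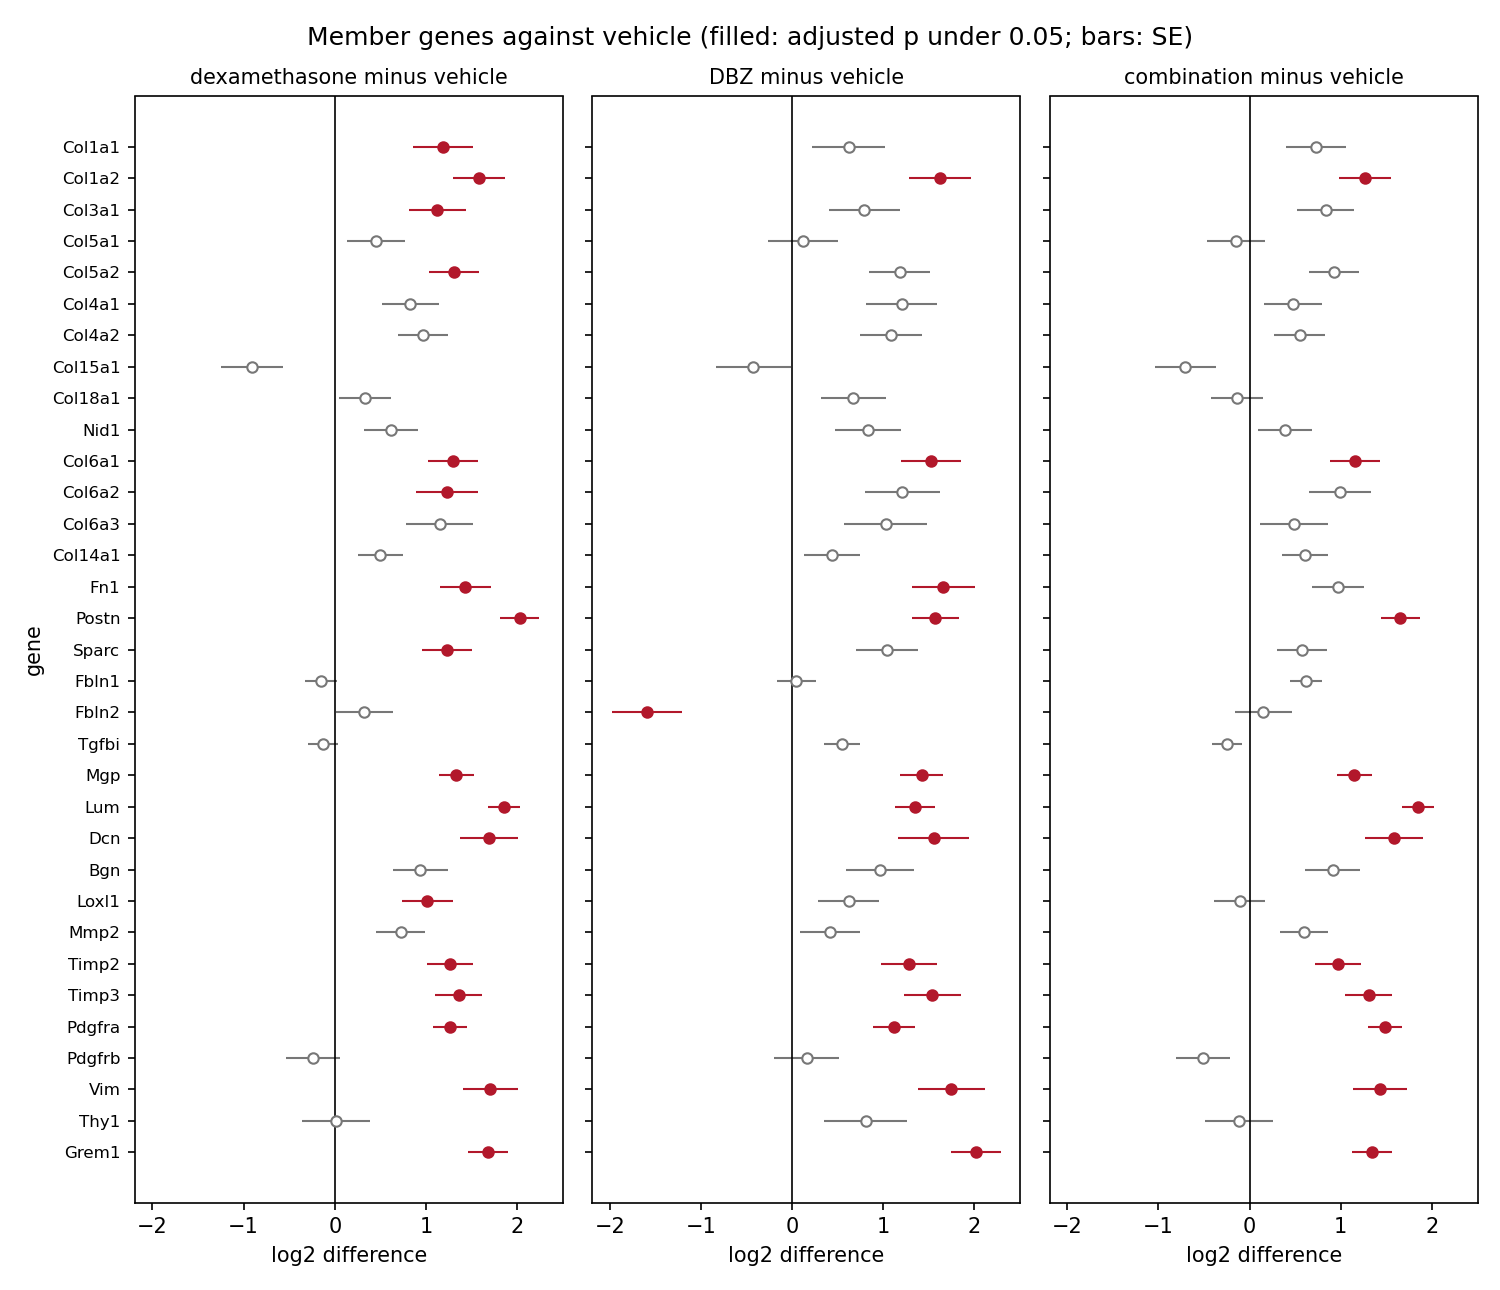
Log2 differences of 33 genes (rows) from vehicle with dexamethasone, DBZ and the combination (panels); bars are SE and filled points have an adjusted p under 0.05. Most points lie right of 0, Fbln2 lies left of 0 with DBZ, and 18, 13 and 11 points are filled.

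Over all 60 tested probe sets of the members, 26 rose and 1 fell with dexamethasone, 16 rose and 1 fell with DBZ, and 17 rose and 0 fell with the combination. Of all 13638 tested probe sets, 985, 511 and 598 rose and 657, 628 and 417 fell, in the same order. By gene, 11 rose in each of the 3 comparisons: Col1a2, Col6a1, Dcn, Grem1, Lum, Mgp, Pdgfra, Postn, Timp2, Timp3 and Vim. Another 6 passed with dexamethasone alone, and 15 of the 33 rose in none. The lone DBZ array could not be left out. Calls that remained when any 1 of the other arrays was left out were those of Grem1, Lum, Mgp, Pdgfra, Postn and Vim for either single drug, and the calls of Lum, Pdgfra and Postn in the combination. Without vehicle replicate 2, fewer members were called with dexamethasone and with the combination, and without dexamethasone replicate 1 fewer with dexamethasone. Without either combination array, fewer were called with DBZ and with the combination. In each of these fits fewer of all tested probe sets were called as well. Over the 6 fits the median log2 difference of the members ran from 0.60 to 1.44 with dexamethasone. It ran from 0.67 to 1.47 with DBZ and from 0.35 to 1.14 with the combination. Without rescaling, all probe sets had medians of -0.92, -1.0 and -0.99 against vehicle, and the members had 0.20, 0.07 and -0.20. Of the members called then, 3, 1 and 3 were higher and 4, 3 and 7 lower. Of all 13638 tested probe sets, 201, 129 and 132 were then called higher and 9974, 9227 and 10707 lower.

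Related genes outside the set had smaller medians. Of all genes, 6.93% rose with dexamethasone, 3.94% with DBZ and 3.83% with the combination, and 5.29%, 3.89% and 3.5% fell. For groups of 10 to 18 genes, 0 or 1 called lies near these shares. Of 18 tested genes for other collagens and matrix proteins, 7 rose with dexamethasone, 3 with DBZ and 4 with the combination, and 0 fell, with medians of 0.91, 0.61 and 0.56. Tenascin C (Tnc), a matricellular protein, rose in all 3 groups (1.69 ± 0.28, 1.76 ± 0.34 and 1.61 ± 0.28), as did thrombospondin 2 (Thbs2; 1.66, 1.85 and 1.60) and the fibulin-like Efemp1 (1.28, 1.87 and 1.08). Osteoglycin (Ogn), a small leucine-rich proteoglycan, rose with dexamethasone (1.86 ± 0.21) and the combination (1.40 ± 0.21). Of 18 genes of the TGF-beta pathway, 1 rose in each group, the receptor Tgfbr2 (1.32, 1.12 and 1.0). Of 15 matrix receptors, 4, 3 and 3 rose, among them the syndecan Sdc1 (1.53, 1.02 and 0.96) and the integrin chain Itgb5 (1.12, 1.70 and 1.68). Of 10 laminin and basement membrane genes, 2, 1 and 3 rose, with the epithelial laminin chain Lamb3 in all groups (1.88, 1.87 and 2.03). Of 10 genes for collagen folding and processing limma called 0 in each group (3, 2 and 1 at an unadjusted p under 0.05), with medians of 0.36, 0.25 and 0.35. Of 11 other metalloproteinases 1 rose with dexamethasone (Mmp7, 1.44 ± 0.33), 0 with DBZ (4 at an unadjusted p under 0.05) and 1 with the combination (Mmp10, 1.08 ± 0.26).

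Markers of another cell layer moved with the set. Of 11 tested smooth muscle genes, 8 rose with dexamethasone, 5 with DBZ and 4 with the combination, and 0 fell (medians 1.0, 1.25 and 0.60). Of all genes, 6.93%, 3.94% and 3.83% rose and 5.29%, 3.89% and 3.5% fell. The sum over all 12 smooth muscle markers was 36675 and 27292 with dexamethasone, 34315 with DBZ, 27453 and 26027 with the combination, against 18392 and 14100 with vehicle. Relative to the vehicle mean, the dexamethasone arrays were at 2.26 and 1.68, the DBZ array at 2.11 and the combination arrays at 1.69 and 1.60. For the summed signal of the 36 matrix genes these ratios were 2.05 and 1.70, 1.93, and 1.69 and 1.61, in the same order. Vehicle replicates 1 and 2 stood at 1.13 and 0.87 for smooth muscle and at 1.20 and 0.80 for the matrix genes. The part of the muscle layer, of position along the gut and of RNA quality in the matrix result was not tested. Fabp6 and Reg1 separated every drug-treated array from both vehicle arrays. Against vehicle, any difference in position therefore cannot be told apart from the drugs in this design.

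**Figure D3:**
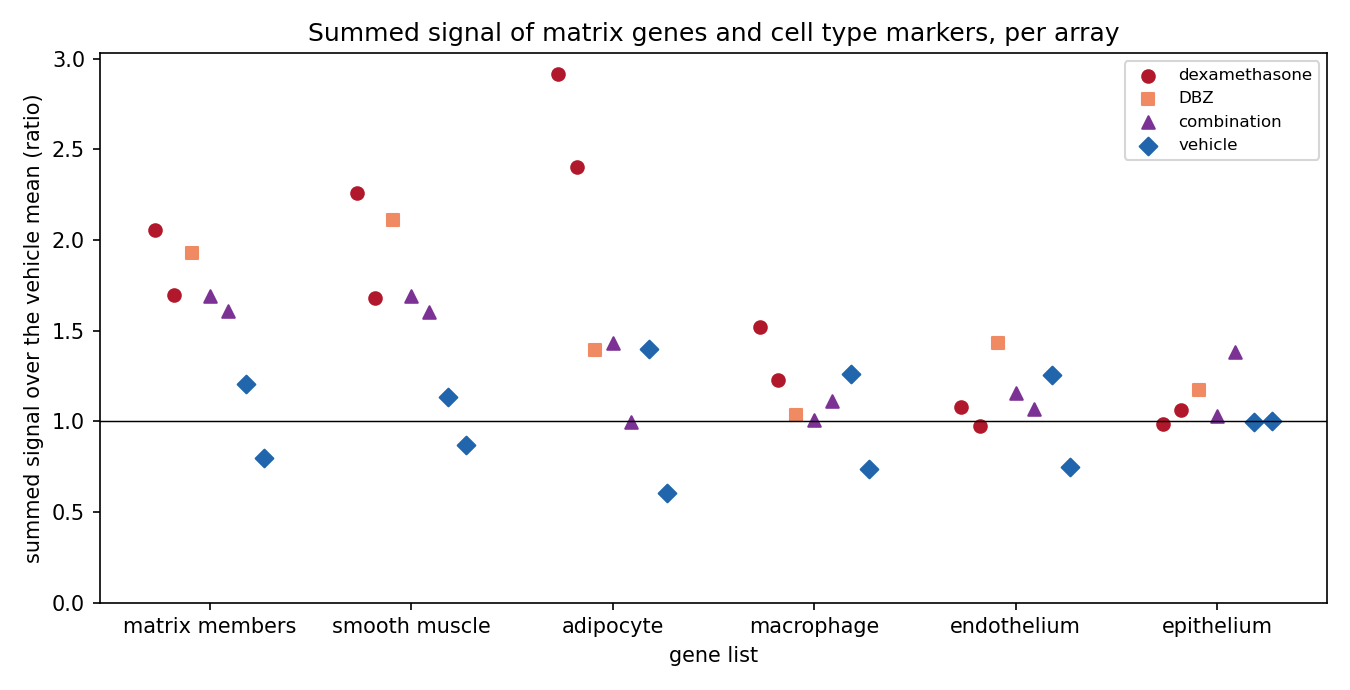
Summed signal of the 36 matrix genes and of 5 marker lists in each array, divided by the mean of both vehicle arrays (a ratio, vertical axis from 0). Matrix and smooth muscle sums are at 1.60 or more in every drug-treated array, and epithelial sums lie between 0.98 and 1.38.

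Other lists did not follow the set in the same way. The endothelial sum was 573 and 516 with dexamethasone, 762 with DBZ, 614 and 567 with the combination, against 666 and 397 with vehicle, and limma called 0 of 8 tested genes in each of the 3 comparisons (1, 2 and 0 at an unadjusted p under 0.05). The macrophage sum was 3215 and 2601 with dexamethasone, 2196 with DBZ, 2137 and 2359 with the combination, against 2674 and 1560 with vehicle, with 0 of 8 called (3, 0 and 1 unadjusted). With 3.5% to 6.93% of all genes called in each direction, 0 of 8 does not set a list apart. Of 5 tested adipocyte genes 3 rose with dexamethasone and 0 in the other groups (0 with DBZ and 1 with the combination at an unadjusted p under 0.05). The adipocyte sum was 3800.0 and 3133 with dexamethasone, 1819 with DBZ, 1868 and 1296 with the combination, against 1820 and 787 with vehicle, and leptin (Lep) read 28.3 or less in all arrays. Of the enteric neuron and glia list 2 genes were tested and 0 called (1, 1 and 0 unadjusted), and its sum ranged from 221 to 315.

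The differences between drug groups do not contain the vehicle arrays, though these arrays entered the shared estimate of spread behind each SE and p. Combination against dexamethasone gave 0 of 33 genes called by limma, with 3 at an unadjusted p under 0.05, where 0.0247% of all genes were called higher and 0.0124% lower. The median log2 difference was -0.27, with 29 of 33 lower, against a median of all genes of -0.07. Combination against DBZ gave 0 called and 6 at an unadjusted p under 0.05 (0.0741% of all genes called higher and 0.0371% lower; median -0.28, 23 of 33 lower, all genes -0.03). DBZ against dexamethasone gave 0 called and 3 unadjusted (0.0741% of all genes called higher and 0.111% lower; median 0.03, 18 of 33 higher, all genes -0.03). In a fit without the vehicle arrays, an alternative added after the data were seen, 0 members were called in each of the 3. Of all 13638 probe sets tested, that fit called 11 higher and 6 lower for combination against dexamethasone, where the fit over all arrays called 3 and 1. In both comparisons with DBZ it called fewer probe sets than the fit over all arrays. A value that misses the threshold with so few arrays does not show that the groups were equal.

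Loxl1 had the lowest value in the combination relative to dexamethasone (-1.13 ± 0.28, adjusted p = 0.240), both combination arrays lying below both dexamethasone arrays. Sparc, with 754 and 722 in the combination against 1252 and 1091 with dexamethasone, had -0.66 ± 0.28 (adjusted p = 0.503). Fbln1 stood the other way, with 0.76 ± 0.17 (adjusted p = 0.215) and 1.03 ± 0.21 in its second probe set (adjusted p = 0.188). Against DBZ, the combination had -0.80 ± 0.20 for Tgfbi (adjusted p = 0.162), -0.67 ± 0.27 for Grem1 (adjusted p = 0.356), 0.50 ± 0.22 for Lum (adjusted p = 0.396) and 1.75 ± 0.38 for Fbln2 (adjusted p = 0.112). Lum and Postn were lower in DBZ than in dexamethasone by values that did not pass (-0.51 ± 0.22 and -0.46 ± 0.26). The proteoglycans were the role group closest to 0 between the combination and dexamethasone, with a median of -0.03 and a lowest value of -0.11.

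**Figure D4:**
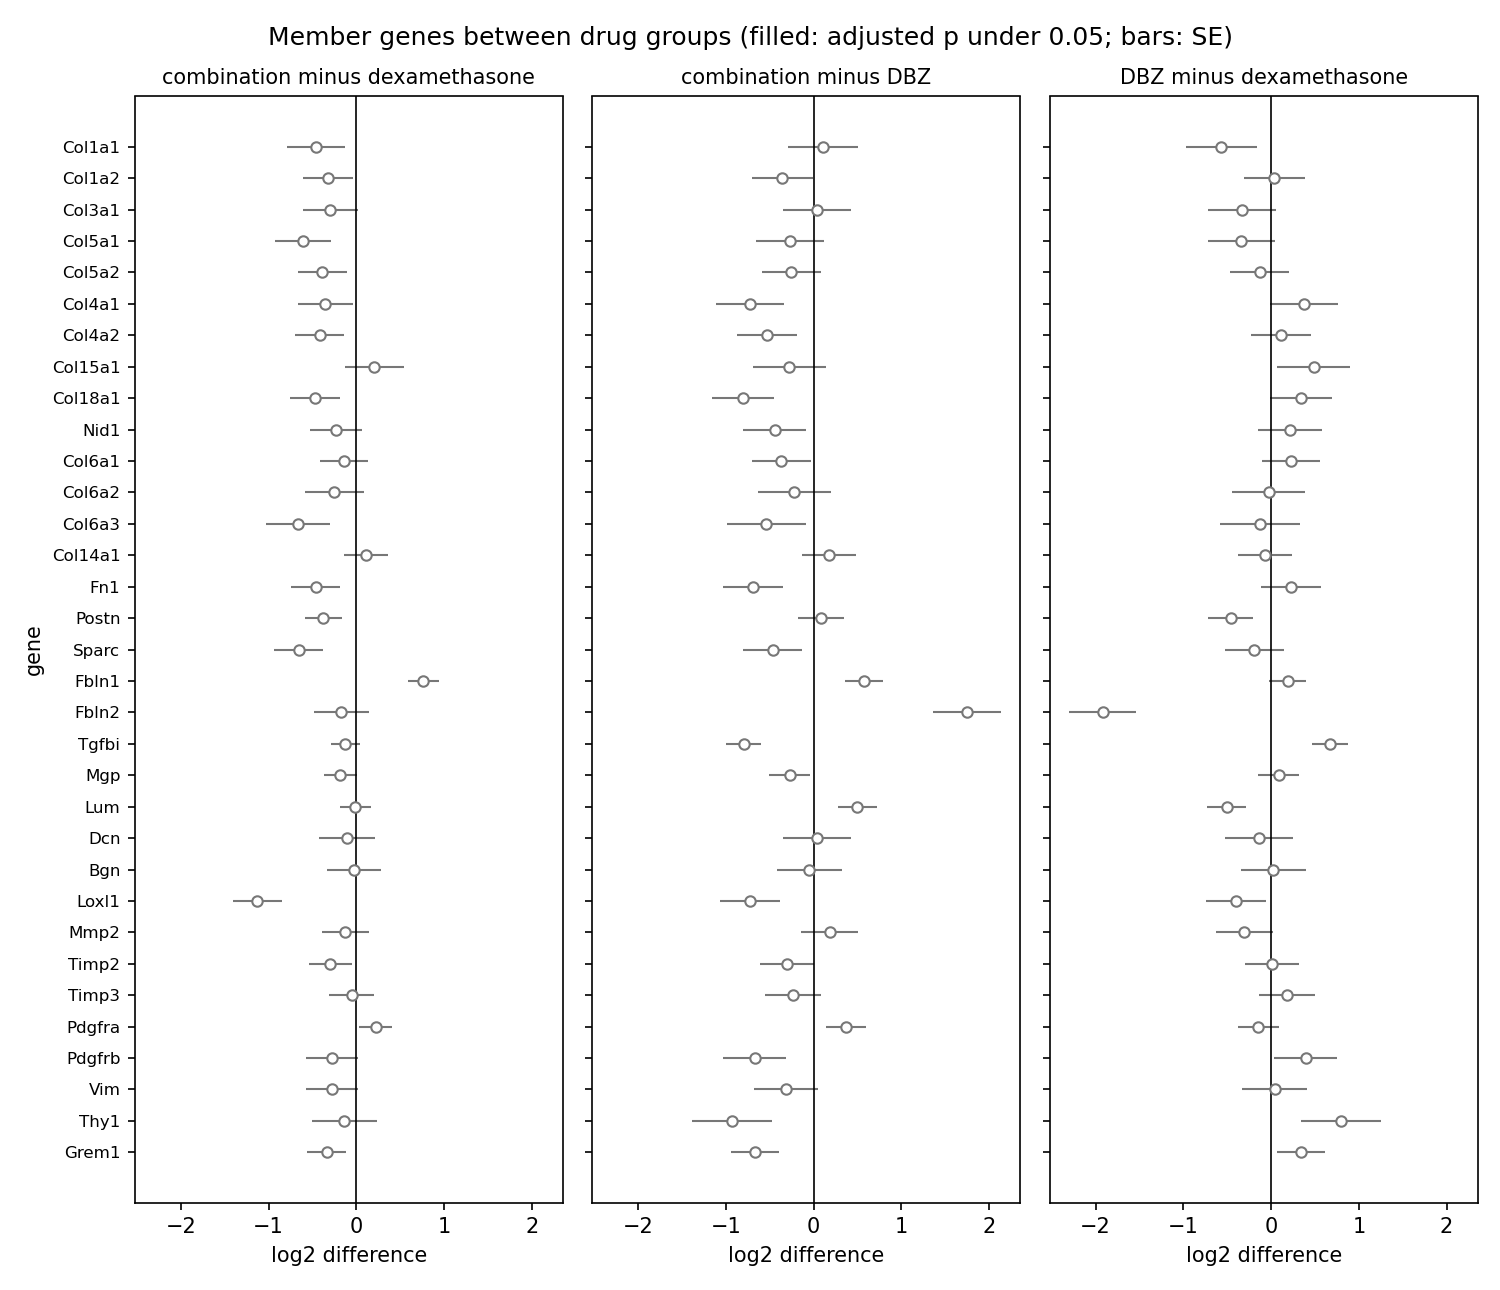
Log2 differences of 33 genes (rows) for combination minus dexamethasone, combination minus DBZ and DBZ minus dexamethasone (panels); bars are SE and open points did not pass. No point is filled; Fbln2 lies farthest from 0 in the comparisons with the DBZ array.

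Whether both drugs together gave the sum of their separate differences was asked with the interaction, that is, the combination less dexamethasone, from which DBZ less vehicle was then taken away. The median interaction of the 33 genes was -1.46, where all genes had -0.05, and 30 of 33 were below 0. Past the threshold were 7 genes, all negative, where 2.09% of all genes were called lower and 1.75% higher. They were Grem1 (-2.35 ± 0.35, adjusted p = 0.00906), Fn1 (-2.12 ± 0.44), Vim (-2.03 ± 0.47), Postn (-1.95 ± 0.33), Col1a2 (-1.94 ± 0.45), Mgp (-1.60 ± 0.30) and Lum (-1.36 ± 0.28). In each of these, both single drugs were above vehicle past the threshold, and the combination stood -0.46 to -0.01 from dexamethasone. The other probe sets of Col1a2 (-1.28) and Vim (-1.13 and -0.95) did not pass, while 1 Timp2 probe set did (-1.84 ± 0.40). Without rescaling, where the interaction had a median of 0.95 over all tested probe sets, the members had a median of -0.49 and 5 were called, 3 higher and 2 lower. Of all 13638 tested probe sets, 6381 were then called higher and 118 lower. The calls of Col1a2 (-0.97), Fn1 (-1.16), Lum (-0.42), Mgp (-0.63) and Vim (-1.06) ended there. The interaction draws on the same vehicle arrays as the comparisons above. Vehicle arrays that are low against all drug-treated arrays alike make it negative. That cannot be told apart here from a dependence of 1 drug on the other. When any 1 array other than the DBZ array was left out, Grem1 alone kept its call, with -2.63 to -2.07. The median interaction of the members then ran from -1.69 to -1.05.

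**Figure D5:**
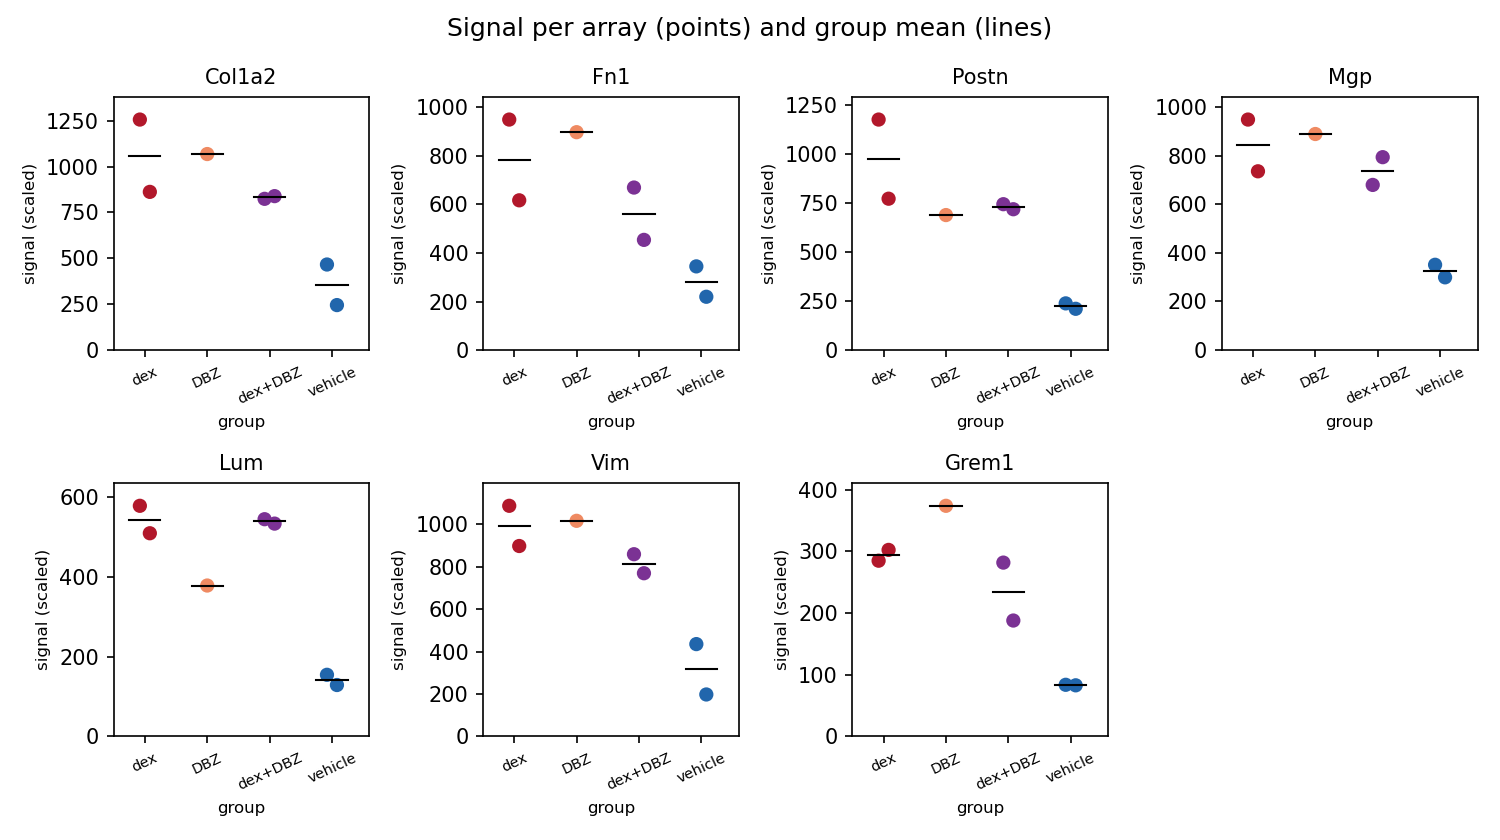
Scaled signal per array (points, vertical axis from 0) and group mean (lines) of the 7 genes past the threshold in the interaction. In all 7, every dexamethasone, DBZ and combination array is above both vehicle arrays.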

How the data were processed

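RNA of small intestine was measured on Affymetrix arrays. The deposited intensity is 1 signal for each probe set, which the authors computed with MAS5 per the submitters' processing notes; no version is named in the sources used here, and detection calls were not used. Gene names came from the platform annotation (20393 probe sets with 1 symbol, 691 with several, 1606 with none).

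The 2 DBZ columns were averaged into 1 array. Arrays were scaled to a 2% trimmed mean (fraction 0.02) of 250, and values taken as log2(signal + 12.3), the pooled 20th percentile, so fold changes of low genes are understated. Probe sets with a mean under 38.8 (the pooled 40th percentile) and 64 controls were left out, leaving 13638 probe sets. The model, 4 group means over 7 arrays, used limma 3.58.1 (R 4.3.3; moderated test with intensity trend, Benjamini-Hochberg at 0.05 over all tested probe sets; 3 residual degrees of freedom). The fit was tested on simulated data. Counts of genes use 1 probe set a gene (8094). Values after ± are SE for log2 differences; "rose" and "fell" mark values past the threshold.

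All members were accounted for. Signals in every array were given for each member called between drug groups (0 in number) and for the 2 of each role group with the smallest p. Other members were added after their values were seen. Members and lists were chosen with earlier results of these data known. Alternatives are in the closing section.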

Additional observations from a re-analysis of the deposited data

Results flagged for a closer look

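For 7 matrix genes DBZ against vehicle differed from the combination against dexamethasone, by limma's test of that difference itself (interaction, adjusted p under 0.05). The log2 values were -2.35 for Grem1, -2.12 for Fn1, -2.03 for Vim, -1.95 for Postn, -1.94 for Col1a2, -1.60 for Mgp and -1.36 for Lum. DBZ against vehicle, which is 1 array against 2, gave 2.02, 1.66, 1.75, 1.57, 1.62, 1.42 and 1.35 for these genes, and the combination against dexamethasone gave -0.33, -0.46, -0.28, -0.38, -0.32, -0.18 and -0.01. Vehicle arrays that are low against all drug-treated arrays alike also give a negative interaction. That cannot be told apart here from a change in what DBZ added. On the deposited scale, where the median over all tested probe sets was 0.95, Grem1 and Postn still passed, and Col1a2, Fn1, Vim, Mgp and Lum did not (adjusted p = 0.0983, 0.0567, 0.0930, 0.105 and 0.235). Of the members, 3 were then called higher and 2 lower, where 6381 and 118 of all 13638 tested probe sets were. Marker lists in the interaction of the rescaled arrays had a median of -1.48 for smooth muscle, with 3 of 11 genes called lower. The median was -4.41 for 4 genes of the ileum, with 4 called lower. Of all genes, 2.09% were called lower. The part of these lists in the result was not tested.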

How the results depend on the processing

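The counts of member genes called were 18 with dexamethasone, 13 with DBZ and 11 with the combination against vehicle, 0 in the 3 comparisons between drug groups and 7 in the interaction. Over all 13638 tested probe sets, calls higher and lower were 985 and 657 with dexamethasone and 511 and 628 with DBZ. With the combination they were 598 and 417, and in the interaction 282 and 263. With the deposited scale kept, the counts of members were 7 with dexamethasone, 4 with DBZ and 5 in the interaction (3 higher and 2 lower). The median of the members with the combination turned to -0.20, where all tested probe sets had -0.99, and Fbln1 with DBZ turned to -0.95. Of all 13638 tested probe sets, 201 were then called higher and 9974 lower with dexamethasone, and 129 and 9227 with DBZ. In the interaction 6381 were called higher and 118 lower. The arrays then differ in total signal by construction. Without the low-signal filter the count of members was 7 with DBZ and 3 in the interaction. Of all 22626 probe sets, 273 were then called higher and 265 lower with DBZ, and 127 and 106 in the interaction. Without the intensity trend the count of members was 7 with DBZ, 7 with the combination and 1 in the interaction. Of all probe sets, 291, 391 and 108 were then called higher and 387, 262 and 98 lower, in that order. Averaging the probe sets of a gene gave 8 members with DBZ, and a pseudocount of 1 gave 1 for DBZ against dexamethasone. Of all 8094 averaged genes, 246 were called higher and 314 lower with DBZ. With a pseudocount of 1, 13 probe sets were called higher and 58 lower for DBZ against dexamethasone. Counting the 2 DBZ columns as separate arrays, which treats copies as replicates, gave 20 members with DBZ, 3 for the combination against DBZ, 3 for DBZ against dexamethasone and 19 in the interaction. Of all probe sets, 1750 were then called higher and 2356 lower with DBZ, and 1084 and 1039 in the interaction. For the combination against DBZ 738 and 354 were, and for DBZ against dexamethasone 482 and 1117. With the replicate block the counts of members were 21, 13 and 12 against vehicle and 12 in the interaction. Of all probe sets, 908, 486 and 552 were then called higher and 584, 489 and 339 lower against vehicle. In the interaction 224 were called higher and 271 lower. Differences between replicates 1 and 2 correlated between groups at 0.12, 0.06 and -0.12, so the numbers were not taken as pairs. Leaving out each array in turn gave 7 to 22 with dexamethasone, 8 to 19 with DBZ, 3 to 16 with the combination, 0 between drug groups and 1 to 18 in the interaction. The number called over all tested probe sets changed between these fits as well. The medians of the members then ran from 0.60 to 1.44, from 0.67 to 1.47 and from 0.35 to 1.14 against vehicle, and from -1.69 to -1.05 in the interaction. Over all single-gene values and alternatives, 3849 kept direction and side of the threshold, 197 lost a call, 107 gained one and 1 reversed. Except where stated, the cause was not tested. No DBZ replicate could be left out, and vehicle arrays stand in every comparison with vehicle.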
